A study of Mus musculus with 27 samples.

Results

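The transcription factor genes that steer thymocytes into the CD4 lineage and mark their immaturity were described across sorted mouse T cells: Zbtb7b, Gata3, Tox, Runx1, Runx3, Bcl11b, Tcf7, Lef1, Satb1 and Sox4. All 10 were chosen by name, and each was read from the array's probe sets that the gene table pairs with that symbol alone. Tcf7 had none and was not analysed here, which left 9 genes with 33 probe sets, of 18194 genes measured. T cells of BALB/c mice had been sorted into 9 groups, with 3 Affymetrix arrays each. Thymic groups were Treg precursors (Foxp3GFP- CD25+ CD4 single-positive cells, by the series title), Foxp3+ GFP+ cells gated by CD24 into a high (CD24hi), an intermediate (CD24int) and a low (CD24lo) fraction, and Foxp3- GFP- cells gated in the same 3 ways, while Tregs and naive T cells came from lymph node. Regulatory T cells (Tregs) are defined by Foxp3, which GFP presumably marked, and the surface protein CD24 is lost during thymocyte maturation. Foxp3- thymocytes served as the conventional cells, which the design text names, yet the word Treg also stands in their labels. No age, allele name or CD24 level of the precursors was given.

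In the thymus, cells that carry both CD4 and CD8 choose a lineage after positive selection. Zbtb7b encodes ThPOK, the factor that commits cells to the CD4 lineage, and Gata3 and Tox act upstream of it, whereas Runx3, with the related Runx1, silences Cd4 and Zbtb7b and directs cells to the CD8 lineage. Bcl11b secures T cell identity, Lef1 and Tcf7 are partners of beta-catenin that support the CD4 choice, Satb1 organises chromatin and is required for Treg development, and Sox4 is abundant in immature thymocytes.

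Runx1 and Runx3 can each be transcribed from a distal and a proximal start site. Promoters from RefSeq (GRCm38.p6, minus strand unless stated, 250 bases before to 50 after a start) were found for 9 of the 10 genes, 20 promoters in all, and Tox had no entry. The letters TGTGGT, the core of RUNX binding sites, were searched on both strands and occurred in 3 of these 20, against 16.8% of all 32851 promoters of 300 bases. The 3 are shown because they belong to Zbtb7b, a known target of RUNX factors, and to both RUNX genes, with matches in capitals (ACCACA where the match is on the other strand). The promoter of Sox4 is shown because that gene varied most, with CCAAT or its reverse ATTGG in capitals, of which it held 4. CCAAT, the core of a common promoter element, occurred on either strand in 37.4% of all promoters.
Runx3, distal start, chr4:135120395-135120694, plus strand: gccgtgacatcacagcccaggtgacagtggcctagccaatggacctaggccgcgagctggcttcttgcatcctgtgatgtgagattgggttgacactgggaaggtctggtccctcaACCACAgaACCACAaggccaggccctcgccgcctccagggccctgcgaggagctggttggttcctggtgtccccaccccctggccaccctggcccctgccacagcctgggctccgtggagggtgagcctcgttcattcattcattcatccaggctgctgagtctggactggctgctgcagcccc
Runx1, distal start, chr16:92826025-92826324: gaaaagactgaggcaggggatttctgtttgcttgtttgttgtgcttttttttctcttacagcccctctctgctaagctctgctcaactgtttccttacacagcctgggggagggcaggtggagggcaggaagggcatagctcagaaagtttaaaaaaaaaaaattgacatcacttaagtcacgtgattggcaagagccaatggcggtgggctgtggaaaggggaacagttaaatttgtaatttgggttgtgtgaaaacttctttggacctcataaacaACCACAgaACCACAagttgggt
Zbtb7b, chr3:89387622-89387921: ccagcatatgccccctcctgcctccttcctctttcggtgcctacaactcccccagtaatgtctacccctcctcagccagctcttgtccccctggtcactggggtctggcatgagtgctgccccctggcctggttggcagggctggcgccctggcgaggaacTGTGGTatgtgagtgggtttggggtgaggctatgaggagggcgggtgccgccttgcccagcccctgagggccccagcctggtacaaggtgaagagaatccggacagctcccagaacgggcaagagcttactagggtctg
Sox4, chr13:28953650-28953949: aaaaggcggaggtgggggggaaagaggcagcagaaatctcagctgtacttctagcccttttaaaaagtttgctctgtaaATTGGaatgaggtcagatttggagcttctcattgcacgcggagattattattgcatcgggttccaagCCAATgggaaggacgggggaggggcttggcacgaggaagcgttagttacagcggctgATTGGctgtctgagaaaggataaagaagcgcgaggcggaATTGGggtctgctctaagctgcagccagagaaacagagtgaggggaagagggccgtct
The distal promoters of Runx1 and Runx3 held the same 18 bases, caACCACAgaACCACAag, with 2 bases between the matches. This stretch lay at position 27 from the start site in Runx1 and at -136 in Runx3, and it was found in promoters of 4 genes in the whole table, those of Runx1, Runx2, Runx3 and Gm16225. The proximal promoters of Runx1 and Runx3 and the other Zbtb7b promoter held no such letters. A match describes the sequence only, and which start site was in use was not analysed here.

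Values are log2 intensities from the deposited table, which the authors had processed with RMA, and levels are compared only within a gene. A difference is also on the log2 scale, the group named first minus the other, and stands ± its standard error from a limma fit to all 27 arrays. A gene rose, fell or passed where the Benjamini-Hochberg adjusted p over 18194 genes was under 0.05. Precision is limited by having 3 arrays a group. No label ties a replicate to an animal of its own, so a p-value here measures no more than the sample-to-sample spread, which may be technical. Fewer cells of a type and less RNA per cell cannot be told apart in bulk samples.

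The labels of the sort held at the level of RNA. Foxp3 averaged 9.90 to 10.07 in the groups labelled Foxp3+ or Treg of the lymph node, and 3.80 to 4.17 elsewhere, and Il2ra, which encodes CD25, averaged 8.16 in precursors. Markers of alpha beta T cells (6 genes) averaged 10.85 to 11.76 on all 27 arrays. Replicate 3 of Foxp3- CD24hi held liver transcripts, with Alb at 11.65 against 3.49 to 4.23 on the 26 other arrays. Calls of the 9 genes that use this array were therefore also made without it. List genes, marker counts and correlations were not recomputed without it. In Foxp3- CD24lo cells 7 natural killer (NK) and innate-like T cell markers averaged 9.15 to 9.30 and 4 gamma delta T cell markers 9.93 to 10.33, above all other groups, whose arrays spanned 4.21 to 7.53 and 5.05 to 8.19. Replicate numbers also left a mark, which is described with Sox4.

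**Figure D1:**
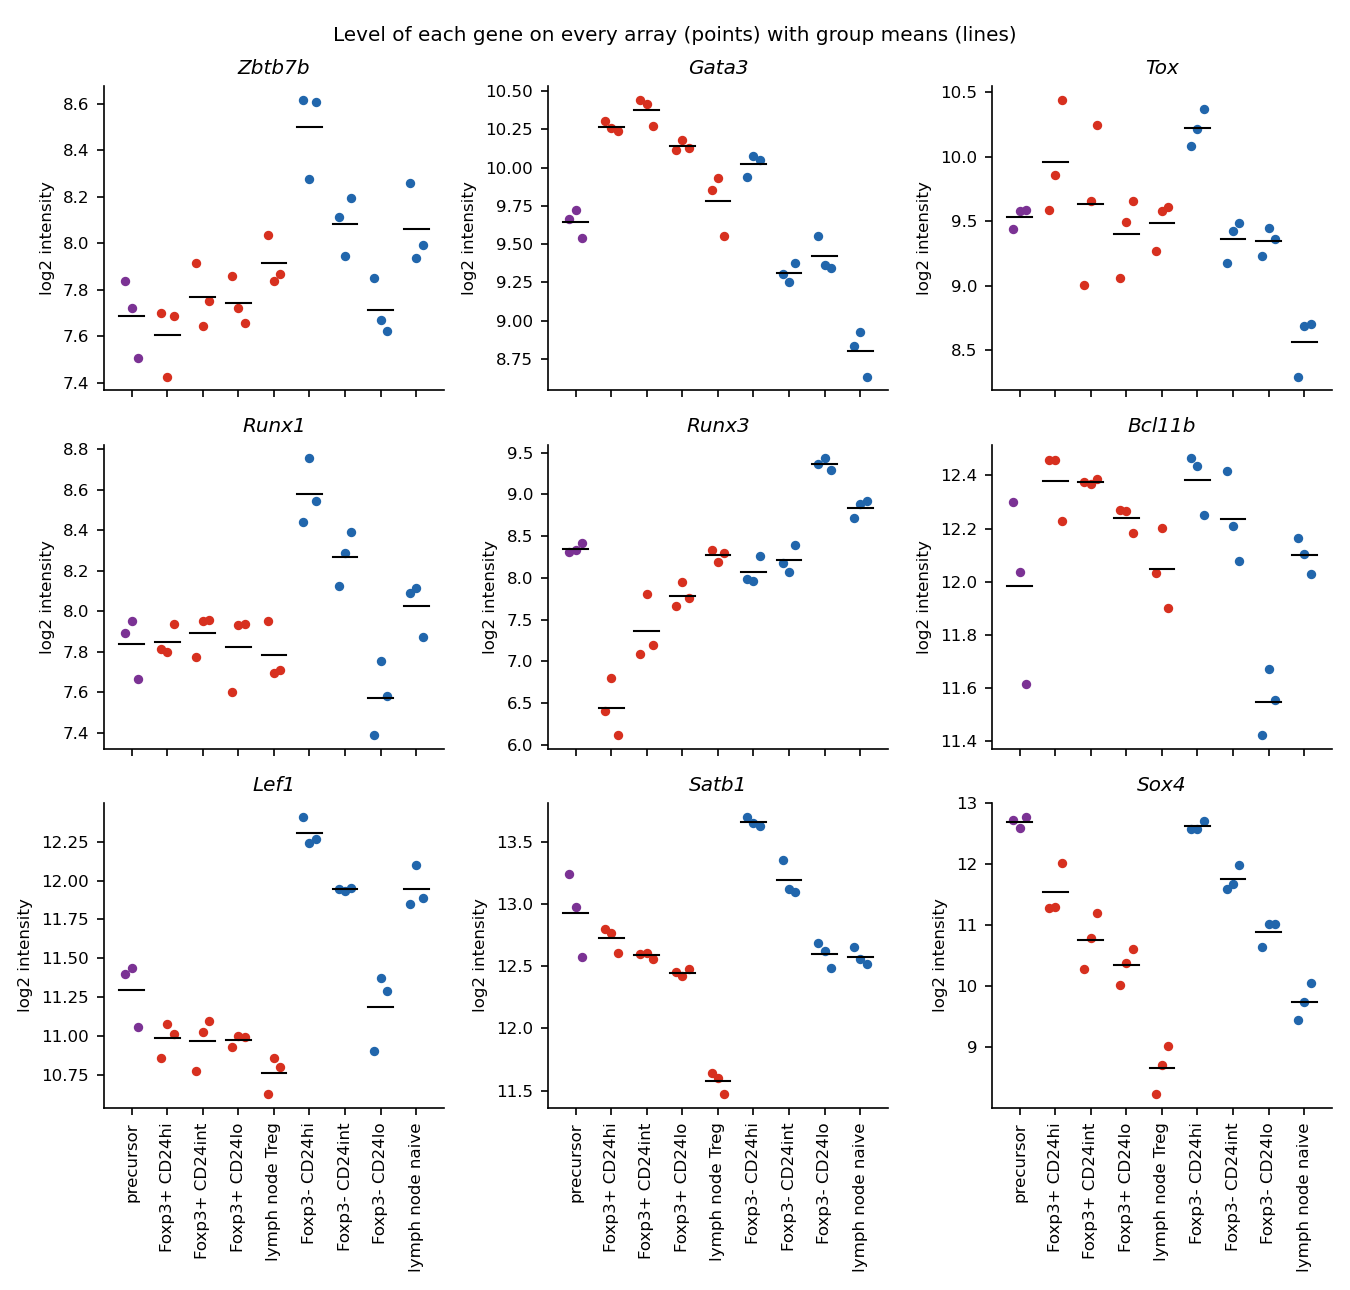
Log2 intensity of each of the 9 measured genes (panels, each with its own axis) on every array (points, replicates 1 to 3 from left to right) in the 9 groups, with the mean of 3 arrays as a line. Precursors are purple, Foxp3+ thymocytes and lymph node Tregs red, Foxp3- thymocytes and lymph node naive cells blue. Foxp3- CD24hi cells have the highest mean for Zbtb7b, Tox, Runx1, Bcl11b, Lef1 and Satb1.

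Whether the lineage factors differ between Foxp3+ and conventional cells was asked at each CD24 level and in lymph node. Among CD24hi cells, 6 of the 9 genes fell in Foxp3+ cells (Zbtb7b, Runx1, Runx3, Lef1, Satb1 and Sox4), where 18.0% of all genes passed, and the same number passed without the liver-bearing array. At CD24int Gata3 rose and 5 genes fell (Runx1, Runx3, Lef1, Satb1 and Sox4), with 15.3% of all genes passing. At CD24lo Gata3 and Bcl11b rose and Runx3 fell, with 21.0% of all genes passing, so that the 3 of 9 members were near the background there. In lymph node Tregs, Gata3 and Tox rose and Runx3, Lef1, Satb1 and Sox4 fell relative to naive cells, with 12.4% of all genes passing. The median difference of the 9 genes was -0.90, -0.37 and 0.03 at CD24hi, CD24int and CD24lo and -0.24 in lymph node, against 0.0045, -0.012, -0.012 and -0.042 over all genes.

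**Figure D2:**
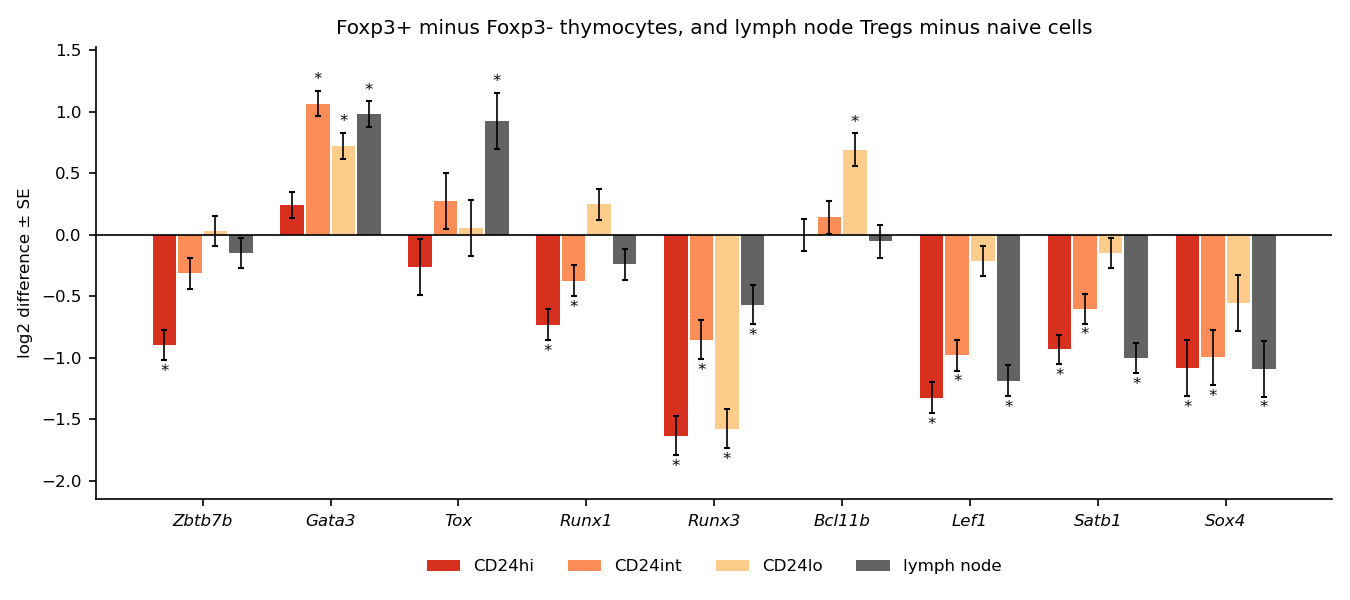
Log2 difference (bars) ± standard error, Foxp3+ minus Foxp3- thymocytes at 3 CD24 levels and lymph node Tregs minus naive cells, for the 9 measured genes, from 3 arrays a group. Asterisks mark adjusted p under 0.05: Runx3 is lower in all 4 comparisons, Gata3 is higher in 3, and Bcl11b is higher at CD24lo alone of the 4.

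Other cell types and cycling moved with these comparisons, and their part in the results was not tested. At CD24hi 3 of 7 NK and innate-like markers rose (mean level 5.30 to 5.68 in Foxp3+ cells and 4.21 to 4.75 in Foxp3- cells) 3 of 9 double-positive thymocyte markers fell (5.92 to 6.07 and 6.55 to 6.70) and 2 of 7 cell cycle genes fell (8.58 to 9.54 and 9.21 to 9.97). At CD24int 4 of 7 NK and innate-like markers fell and 1 rose (5.32 to 5.43 in Foxp3+ cells and 5.13 to 6.48 in Foxp3- cells), 3 of 4 gamma delta markers fell, and 6 of 7 cell cycle genes fell (8.53 to 8.91 in Foxp3+ cells and 9.95 to 10.60 in Foxp3- cells). At CD24lo 6 of 7 NK and innate-like markers fell and 1 rose (5.10 to 5.18 in Foxp3+ cells and 9.15 to 9.30 in Foxp3- cells), and 4 of 4 gamma delta markers fell (5.16 to 5.47 and 9.93 to 10.33). There too 5 of 7 cell cycle genes fell (8.43 to 8.75 in Foxp3+ cells and 9.31 to 9.93 in Foxp3- cells). Of 7 antigen-presenting cell markers 3 fell at CD24int (6.24 to 6.50 in Foxp3+ cells and 6.50 to 6.83 in Foxp3- cells) and 3 at CD24lo (5.90 to 6.39 and 6.75 to 7.11). Cells of the same CD24 name also differed in Cd24a, which encodes CD24, by 1.62 ± 0.42 at CD24lo (adjusted p = 0.00569, limma). In lymph node 4 of 7 NK and innate-like markers fell and 1 rose in Tregs (5.37 to 5.53 in Tregs and 6.44 to 6.96 in naive cells), and 2 of 7 cell cycle genes rose.

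Zbtb7b, the CD4 commitment factor, was lower in Foxp3+ CD24hi cells, at 7.70, 7.43 and 7.69, than in Foxp3- CD24hi cells, at 8.62, 8.28 and 8.61, with no overlap. The difference was 1.86-fold (-0.90 ± 0.12, adjusted p = 6.39e-06, limma). At CD24int it stood at 7.92, 7.65 and 7.75 in Foxp3+ cells and at 8.11, 7.95 and 8.20 in Foxp3- cells, a difference of -0.31 ± 0.12 that did not pass (adjusted p = 0.0991). At CD24lo the classes overlapped, at 7.86, 7.72 and 7.66 in Foxp3+ cells and 7.85, 7.67 and 7.63 in Foxp3- cells (0.03, 95% interval -0.23 to 0.29). Between CD24hi and CD24lo, Foxp3+ cells differed by 0.14 ± 0.12 without passing, and Foxp3- cells fell (-0.79 ± 0.12, adjusted p = 3.23e-05). Lymph node Tregs, at 8.04, 7.84 and 7.87, overlapped with naive cells, at 8.26, 7.94 and 7.99. Its second probe set gave a larger difference at CD24hi (-1.50) and passed at CD24int (-0.69).

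Gata3, which acts before Zbtb7b in CD4 commitment and drives type 2 helper genes in mature cells, was the gene that most often stood higher in Foxp3+ cells. At CD24hi it was at 10.30, 10.26 and 10.24 in Foxp3+ cells and at 9.94, 10.08 and 10.05 in Foxp3- cells. These arrays did not overlap, yet 0.24 ± 0.10 missed the threshold (adjusted p = 0.115). A fit that blocks on replicate number put it at 0.0499966. At CD24int it was at 10.44, 10.42 and 10.27 in Foxp3+ cells, against 9.30, 9.25 and 9.37 in Foxp3- cells, 2.09-fold higher (1.07 ± 0.10, adjusted p = 2.63e-08). The same direction held at CD24lo, at 10.12, 10.18 and 10.13 in Foxp3+ cells and 9.56, 9.36 and 9.34 in Foxp3- cells (0.72 ± 0.10, adjusted p = 6.85e-06). In lymph node Tregs it was at 9.85, 9.93 and 9.55, against 8.84, 8.92 and 8.63 in naive cells, 1.97-fold higher (0.98 ± 0.10, adjusted p = 9.26e-08). Naive cells were lowest of the 9 groups, and all 3 Foxp3+ thymocyte groups lay above every other.

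Tox, which encodes an HMG-box factor needed for CD4 development, differed between the classes in lymph node. Tregs there were at 9.27, 9.58 and 9.61, against 8.29, 8.69 and 8.70 in naive cells, 1.90-fold higher with no overlap (0.92 ± 0.23, adjusted p = 0.00552). In thymus the classes overlapped at each CD24 level on the probe set used. Of the 3 Tox probe sets, 1 fell at CD24hi (differences of -0.71 to -0.26), none passed at CD24int or CD24lo, and 2 rose in lymph node. At CD24hi Tox was at 9.58, 9.86 and 10.44 in Foxp3+ cells and at 10.08, 10.21 and 10.37 in Foxp3- cells (-0.26, 95% interval -0.73 to 0.20). Its spread in Foxp3+ thymocytes was wide, with 9.00, 9.66 and 10.24 at CD24int and 9.06, 9.49 and 9.66 at CD24lo, whereas Foxp3- cells were at 9.17, 9.42 and 9.49 and at 9.23, 9.45 and 9.36.

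Runx3, the CD8 lineage factor, was the gene whose difference was largest at both CD24hi and CD24lo. In Foxp3+ CD24hi cells it was at 6.40, 6.80 and 6.12, the lowest of the 9 groups, against 7.99, 7.97 and 8.26 in Foxp3- CD24hi cells, 3.10-fold lower (-1.63 ± 0.16, adjusted p = 2.55e-08). At CD24int it was at 7.09, 7.81 and 7.19 in Foxp3+ cells and at 8.18, 8.07 and 8.39 in Foxp3- cells (-0.85 ± 0.16, adjusted p = 0.000337). The classes did not overlap at either level. At CD24lo Foxp3+ cells were at 7.66, 7.95 and 7.75 and Foxp3- cells, which carried the NK and gamma delta markers, at 9.37, 9.43 and 9.29, the highest of all groups (-1.57 ± 0.16, adjusted p = 3.07e-08). Lymph node Tregs were at 8.33, 8.18 and 8.30, against 8.72, 8.89 and 8.92 in naive cells (-0.57 ± 0.16, adjusted p = 0.0169), a difference that no longer passed without Treg replicate 2 or naive replicate 2 or 3 (adjusted p 0.0615 to 0.0702). The second Runx3 probe set moved little, with group means between 5.67 and 6.18. It gave -0.0074 at CD24hi, -0.31 at CD24int, -0.45 at CD24lo and -0.27 in lymph node, and passed at CD24lo only.

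**Figure D3:**
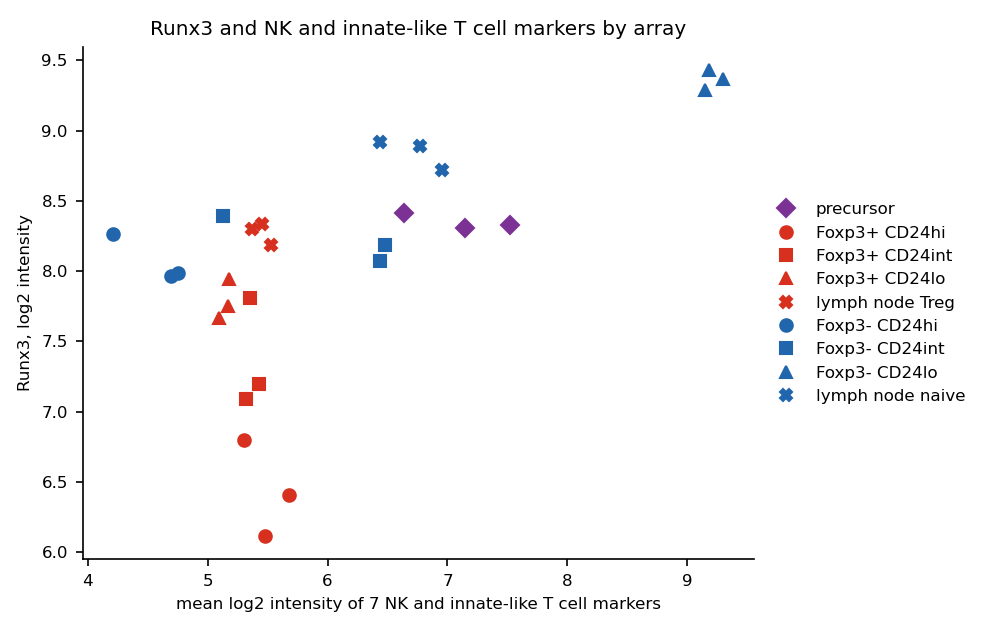
Runx3 (vertical axis, log2 intensity) against the mean log2 intensity of 7 NK and innate-like T cell markers (horizontal axis) for 27 arrays, with colour for the class and marker shape for the CD24 level, precursors or lymph node. The 3 Foxp3- CD24lo arrays lie apart at the upper right, with markers above 9.1. Across the Foxp3+ thymocytes Runx3 spans 6.12 to 7.95 while the markers span 5.10 to 5.68.

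Runx1, a close relative of Runx3 that also acts in early T cell development, was lower in Foxp3+ CD24hi cells, at 7.81, 7.80 and 7.94, than in Foxp3- CD24hi cells, at 8.44, 8.75 and 8.54 (-0.73 ± 0.12, adjusted p = 0.000106). At CD24int it was at 7.77, 7.95 and 7.96 in Foxp3+ cells and at 8.12, 8.29 and 8.39 in Foxp3- cells (-0.37 ± 0.12, adjusted p = 0.0438). The groups did not overlap, but this call was lost on leaving out any Foxp3+ array, or Foxp3- replicate 2 or 3 (adjusted p 0.0619 to 0.174), and with the 2 groups fitted alone (0.127). At CD24lo the arrays overlapped, at 7.60, 7.93 and 7.93 in Foxp3+ cells and 7.39, 7.75 and 7.58 in Foxp3- cells (0.25, 95% interval -0.0097 to 0.51). Lymph node Tregs, at 7.95, 7.70 and 7.71, overlapped with naive cells, at 8.09, 8.11 and 7.87. Of the 6 Runx1 probe sets, 4 fell at CD24hi.

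Bcl11b, the keeper of T cell identity, had the narrowest range of group means, 1.79-fold. At CD24hi it was at 12.46, 12.46 and 12.23 in Foxp3+ cells and at 12.46, 12.44 and 12.25 in Foxp3- cells (0.00 ± 0.13, 95% interval -0.28 to 0.27). At CD24int the values were 12.37, 12.37 and 12.39 in Foxp3+ cells and 12.42, 12.21 and 12.08 in Foxp3- cells, again overlapping. It differed at CD24lo, at 12.27, 12.27 and 12.18 in Foxp3+ cells and 11.42, 11.67 and 11.55 in Foxp3- cells, 1.62-fold higher (0.69 ± 0.13, adjusted p = 0.000265), and 4 of 4 probe sets passed. Lymph node Tregs, at 12.03, 12.20 and 11.90, and naive cells, at 12.16, 12.10 and 12.03, overlapped.

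Lef1, the partner of beta-catenin, was among the most separated genes. Foxp3+ CD24hi cells were at 10.86, 11.08 and 11.01, against 12.41, 12.24 and 12.27 in Foxp3- CD24hi cells, 2.50-fold lower (-1.32 ± 0.12, adjusted p = 1.34e-08). At CD24int the values were 10.77, 11.03 and 11.09 in Foxp3+ cells and 11.94, 11.93 and 11.95 in Foxp3- cells (-0.98 ± 0.12, adjusted p = 1.93e-06). Neither pair overlapped, and lymph node Tregs, at 10.63, 10.86 and 10.80, also lay wholly under naive cells, at 11.85, 12.10 and 11.89 (-1.19 ± 0.12, adjusted p = 8.42e-08). At CD24lo the classes overlapped, at 10.93, 11.00 and 11.00 in Foxp3+ cells and 10.90, 11.37 and 11.29 in Foxp3- cells (-0.21 ± 0.12, adjusted p = 0.284). Without Foxp3- CD24lo replicate 1, the lowest of those arrays, this difference was -0.36 (adjusted p = 0.0497).

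Satb1, the chromatin organiser, was lower in the same 3 comparisons as Lef1. It was at 12.80, 12.76 and 12.61 in Foxp3+ CD24hi cells and at 13.70, 13.65 and 13.62 in Foxp3- CD24hi cells, 1.91-fold lower (-0.93 ± 0.12, adjusted p = 2.19e-06). At CD24int it was at 12.60, 12.61 and 12.55 in Foxp3+ cells and at 13.35, 13.12 and 13.10 in Foxp3- cells (-0.60 ± 0.12, adjusted p = 0.000679). Lymph node Tregs, at 11.64, 11.60 and 11.47, were the lowest of the 9 groups, against 12.65, 12.56 and 12.52 in naive cells (-1.001 ± 0.12, adjusted p = 7.63e-07). In none of these pairs did the arrays overlap. At CD24lo the difference was -0.15 ± 0.12 (adjusted p = 0.484), with 12.45, 12.42 and 12.48 in Foxp3+ cells and 12.68, 12.62 and 12.49 in Foxp3- cells.

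Sox4, the marker of immature thymocytes, had the widest range of the 9 genes, with group means 16.5-fold apart between precursors and lymph node Tregs. At CD24hi it was at 11.28, 11.30 and 12.03 in Foxp3+ cells and at 12.58, 12.58 and 12.70 in Foxp3- cells, 2.12-fold lower (-1.08 ± 0.23, adjusted p = 0.000928). At CD24int it was at 10.29, 10.79 and 11.20 in Foxp3+ cells and at 11.60, 11.67 and 11.99 in Foxp3- cells (-0.995 ± 0.23, adjusted p = 0.00249). At CD24lo the arrays of Foxp3+ cells, at 10.02, 10.38 and 10.62, again lay under those of Foxp3- cells, at 10.64, 11.02 and 11.02, but -0.55 ± 0.23 did not pass (adjusted p = 0.0901). Lymph node Tregs were at 8.24, 8.70 and 9.02, against 9.44, 9.74 and 10.05 in naive cells, 2.13-fold lower with no overlap (-1.09 ± 0.23, adjusted p = 0.00109). Of its 8 probe sets, 4 fell at CD24hi, and a pair with group means from 2.78 to 4.08 barely moved.

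Sox4 and Tox shared a pattern between replicate numbers with Cd24a. Sox4 lay above its group mean in 9 of 9 groups in replicate 3 and in 1 of 9 in replicate 1, by 0.27 and -0.24 on average. Tox lay above it in 9 of 9 groups in replicate 3 and in no group in replicate 1 (0.22 and -0.26), and Cd24a likewise (0.45 and -0.57). Across the 27 arrays the deviations from group means correlated at r = 0.83 for Sox4 with Cd24a and at 0.75 for Tox with Cd24a, over points that share arrays and replicate numbers. Zbtb7b and Satb1 ran the other way, above the mean in 9 of 9 groups in replicate 1 and in 3 and 1 of 9 in replicate 3. Beyond these genes, the mean of 7 cell cycle genes was highest in replicate 1 in every group, at 10.38, 9.33 and 9.15 in precursors. Same-numbered arrays also deviated together over all genes in 11 of 17 comparisons. Correlations with Cd24a were computed for Sox4 and Tox alone, and how many of all genes share such a pattern was not counted. What the replicate number marks was not given.

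**Figure D4:**
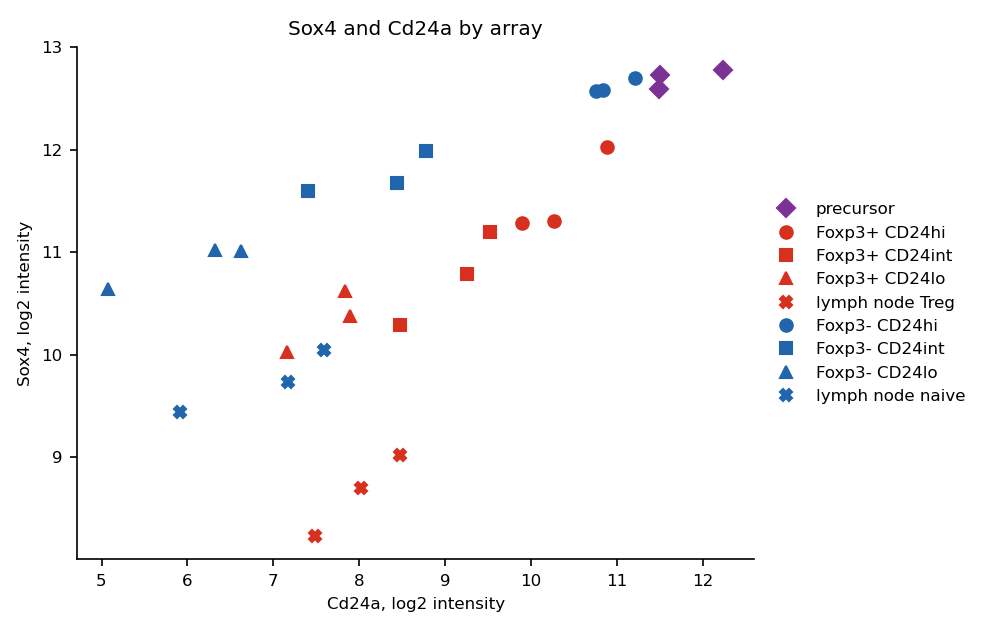
Sox4 against Cd24a, both as log2 intensity, for 27 arrays, with colour for the class and marker shape for the CD24 level, precursors or lymph node. Both are high in precursors and Foxp3- CD24hi cells, and lymph node Tregs have the lowest Sox4 (8.24 to 9.02) at a Cd24a of 7.49 to 8.48, above the 5.08 to 6.62 of Foxp3- CD24lo cells.

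Changes along maturation differed in extent between the classes. From CD24hi to CD24lo, Foxp3- cells changed in 9 of 9 genes, where 16.7% of all genes passed: 8 fell and Runx3 rose, as without the liver-bearing array. Foxp3+ cells changed in 2, where 3.10% of all genes passed: Runx3 rose and Sox4 fell. In Foxp3- cells 3 of 6 alpha beta T cell markers also fell (10.85 to 11.14 at CD24lo and 11.63 to 11.76 at CD24hi), as did 6 of 9 double-positive markers (5.23 to 5.49 and 6.55 to 6.70), whereas 7 of 7 NK and innate-like and 4 of 4 gamma delta markers rose. In Foxp3+ cells none of the alpha beta, double-positive or gamma delta markers passed and 1 of 7 NK and innate-like markers fell. Their part in the results was not tested. Runx3 rose by 1.35 ± 0.16 in Foxp3+ cells (adjusted p = 9.77e-06) and by 1.29 ± 0.16 in Foxp3- cells (adjusted p = 8.97e-07). Its second probe set gave 0.02 in Foxp3+ cells, without passing, and 0.46 in Foxp3- cells, where it passed. Sox4 fell in Foxp3+ cells by 1.20 on the log2 scale (-1.20 ± 0.23, adjusted p = 0.00205) and in Foxp3- cells by 1.73 (-1.73 ± 0.23, adjusted p = 2.09e-06). Tox was lower by 0.56 ± 0.23 at CD24lo in Foxp3+ cells without passing (adjusted p = 0.258), and with the replicate block its adjusted p was 0.0217. Gata3, Runx1, Bcl11b and Lef1 in Foxp3+ cells all had differences between -0.14 and -0.01, with 95% intervals inside -0.41 and 0.25.

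The steps between the gates placed these changes. In Foxp3- cells Gata3, Tox, Satb1 and Sox4 fell from CD24hi to CD24int, where 5.01% of all genes passed, led by Gata3 (-0.71 ± 0.10, adjusted p = 6.20e-05). Without the liver-bearing array Gata3 alone passed, and Tox, Satb1 and Sox4 had adjusted p of 0.0993, 0.0529 and 0.0808. Each of the other 5 arrays of this pair, left out, also ended 1 to 3 of these calls (0.0512 to 0.105). Of the NK and innate-like markers 5 of 7 rose at this step (5.13 to 6.48 at CD24int and 4.21 to 4.75 at CD24hi), and 4 of 9 double-positive markers fell. With the replicate block Zbtb7b (adjusted p = 0.00365) and Lef1 (0.0384) fell as well, and Zbtb7b also passed without Foxp3- CD24hi replicate 2 (0.0216). Leaving out dim genes (0.0317) and the mean of all probe sets (-0.51, 0.000675) let Zbtb7b pass too, and its second probe set fell (-0.60). Satb1 did not pass with the 2 groups fitted alone (0.0845) or with the mean of all probe sets (0.186). From CD24int to CD24lo, Runx1, Bcl11b, Lef1, Satb1 and Sox4 fell and Runx3 rose (1.15 ± 0.16, adjusted p = 8.72e-06), with 12.0% of all genes passing. Zbtb7b, at -0.37 ± 0.12, joined them with the block (adjusted p = 0.00487 with and 0.0543 without it). It also passed without Foxp3- CD24int replicate 2 (0.0436) or CD24lo replicate 1 (0.0444). Quantile normalization (0.00833), leaving out dim genes (0.0341) and the mean of all probe sets (0.00863) let Zbtb7b pass as well. Sox4 did not pass without Foxp3- CD24int replicate 3 or CD24lo replicate 1 (0.0666 each). The second Runx3 probe set gave 0.20 at this step and did not pass. This last step coincided with the NK and innate-like markers, of which 7 of 7 rose (9.15 to 9.30 at CD24lo and 5.13 to 6.48 at CD24int), and with 4 of 4 gamma delta markers (9.93 to 10.33 and 5.73 to 6.99). At this step 3 of 6 alpha beta T cell markers fell (10.85 to 11.14 at CD24lo and 11.38 to 11.57 at CD24int), as did 2 of 9 double-positive markers. Their part in the result was not tested.

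In Foxp3+ cells few genes passed at either step. Runx3 rose from CD24hi to CD24int (0.93 ± 0.16, adjusted p = 0.00679), where 0.286% of all genes passed, although not without Foxp3+ CD24hi replicate 3 or CD24int replicate 2 (0.0704 and 0.0711) or with the 2 groups fitted alone (0.328). With the mean of all probe sets it did not pass either (0.45, adjusted p = 0.0704, limma), and the second Runx3 probe set gave -0.03. Sox4, at -0.78 ± 0.23, passed that step with the replicate block (adjusted p = 0.00384) and had 0.188 without it. From CD24int to CD24lo 0 of 9 genes passed by limma, with 0.0165% of all genes passing. None of the 7 NK and innate-like markers passed at either step.

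**Figure D5:**
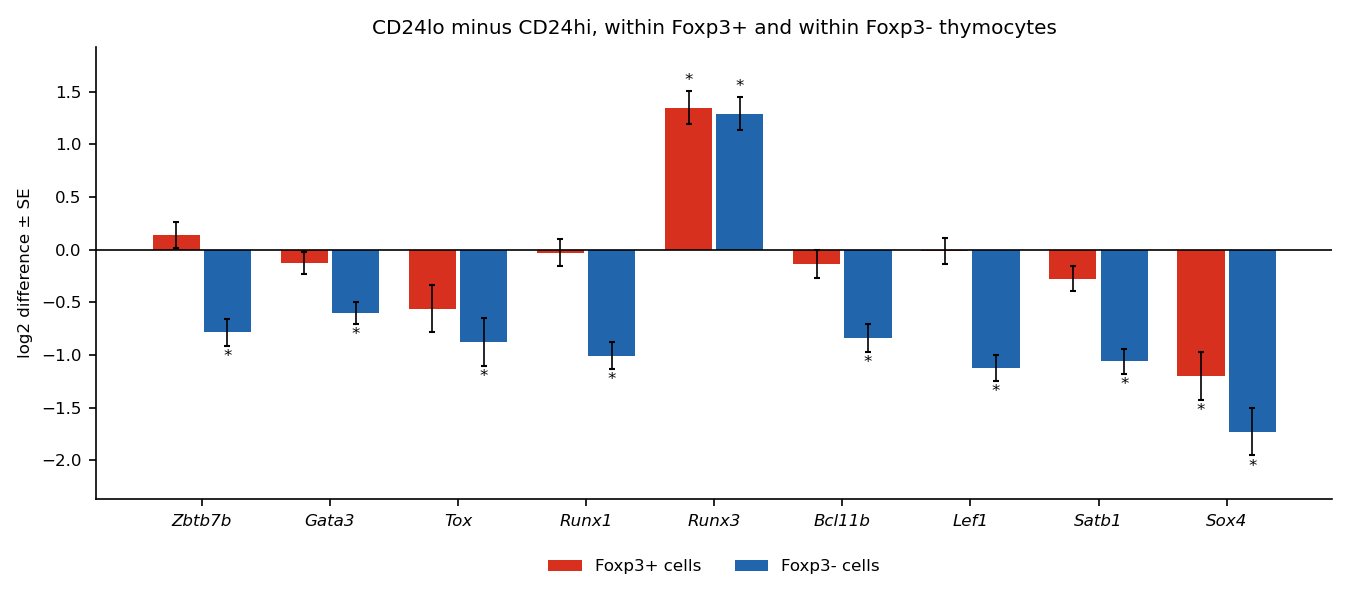
Log2 difference (bars) ± standard error, CD24lo minus CD24hi, within Foxp3+ and within Foxp3- thymocytes, for the 9 measured genes, from 3 arrays a group. Asterisks mark adjusted p under 0.05, in 9 of 9 genes in Foxp3- cells and in Runx3 and Sox4 in Foxp3+ cells.

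The difference in course was tested as an interaction, the change in Foxp3+ cells minus that in Foxp3- cells. Between CD24hi and CD24lo it passed in 6 of 9 genes, where 8.54% of all genes passed, and each was positive: Lef1 (1.11 ± 0.18, adjusted p = 8.99e-05), Runx1 (0.98 ± 0.18, 0.00043), Zbtb7b (0.93 ± 0.18, 0.000755), Satb1 (0.78 ± 0.17, 0.00288), Bcl11b (0.70 ± 0.19, 0.0169) and Gata3 (0.48 ± 0.15, 0.041). That is, these genes fell in Foxp3- cells by more than they changed in Foxp3+ cells. For Tox the interaction was 0.32 and did not pass (adjusted p = 0.713, limma). For Runx3 the interaction was 0.06 (95% interval -0.41 to 0.52) and for Sox4 0.53 (-0.13 to 1.19). Of the 8 Sox4 probe sets, however, 3 had a positive interaction that passed, and so did their mean (0.66, adjusted p = 0.018, limma). Gata3 was lost without the liver-bearing array (adjusted p = 0.0846) and on leaving out any of 9 other arrays (every Foxp3+ CD24hi and CD24lo array, Foxp3- CD24hi replicate 2, Foxp3- CD24lo replicates 2 and 3, 0.0568 to 0.0993), and Bcl11b without Foxp3+ CD24hi replicate 3 (0.0537) or Foxp3- CD24lo replicate 1 (0.054). The fall in Cd24a differed too: -2.72 ± 0.42 in Foxp3+ cells and -4.93 ± 0.42 in Foxp3- cells, an interaction of 2.21 ± 0.60 (adjusted p = 0.0179), so the gates of the same name did not span the same change in Cd24a. All 7 NK and innate-like markers and 4 of 4 gamma delta markers had a negative interaction that passed, and 3 of 9 double-positive and 2 of 6 alpha beta T cell markers a positive one. The part of these in the result was not tested. Between CD24hi and CD24int Gata3 passed (0.82 ± 0.15, adjusted p = 0.00238), with or without the liver-bearing array, where 1.54% of all genes passed. Of the NK and innate-like markers 2 of 7 had a negative interaction there, and Runx3 (0.78 ± 0.23, adjusted p = 0.0894) passed without Foxp3+ CD24hi replicate 2 (0.0257) or Foxp3+ CD24int replicate 1 (0.0399).

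Treg precursors were set against Foxp3- CD24hi cells, arrays that also served the comparison at CD24hi. In precursors 5 of 9 genes were lower, where 9.11% of all genes passed: Lef1 at 11.40, 11.44 and 11.06 (-1.01 ± 0.12, adjusted p = 3.00e-06), Zbtb7b at 7.84, 7.72 and 7.51 (-0.81 ± 0.12, 5.38e-05), Runx1 at 7.89, 7.95 and 7.66 (-0.74 ± 0.12, 0.000165), Satb1 at 13.24, 12.98 and 12.57 (-0.72 ± 0.12, 0.00014) and Gata3 at 9.67, 9.72 and 9.54 (-0.38 ± 0.10, 0.018). None of these 5 overlapped with Foxp3- CD24hi cells, but neither did Tox and Runx3, which did not pass. How many of all genes were free of overlap was not counted. The call for Gata3 was lost without precursor replicate 3 (adjusted p = 0.105) or without Foxp3- CD24hi replicate 2 or 3 (0.0748 and 0.0613). Tox, at 9.44, 9.58 and 9.58 (-0.69 ± 0.23, adjusted p = 0.0571), and Bcl11b, at 12.30, 12.04 and 11.61 (-0.40 ± 0.13, 0.0597), passed with the replicate block (0.00182 and 0.0123), and in the fit without the block missed the threshold with each compared array left out in turn, except Bcl11b without precursor replicate 1 (-0.56, 0.00665). Tox also passed with the compared groups fitted alone (adjusted p = 0.0118, limma) and with quantile normalization (0.0492). Both genes passed without dim genes, those with a mean under 32 (0.041 for Tox and 0.0377 for Bcl11b). With the mean of all probe sets they passed too (0.00764 and 0.00776). Bcl11b rested on precursor replicate 3: without it the difference was -0.22 (adjusted p = 0.42). Sox4 in precursors, at 12.73, 12.59 and 12.77, overlapped with Foxp3- CD24hi cells (0.07, 95% interval -0.39 to 0.54), and Runx3, at 8.31, 8.33 and 8.42, differed by 0.28 (-0.05 to 0.61).

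Genes listed as markers of other cell types were also higher on the precursor arrays. Of 9 double-positive thymocyte markers 5 rose over Foxp3- CD24hi cells (7.00 to 7.82 in precursors and 6.55 to 6.70 in Foxp3- CD24hi cells), as did 6 of 7 NK and innate-like markers (6.64 to 7.53 and 4.21 to 4.75) and 3 of 4 gamma delta markers (6.18 to 8.19 and 5.73 to 5.95). Precursor replicate 3 was the lowest of the 3 arrays in each of these lists, and in Zbtb7b, Gata3, Runx1, Bcl11b, Lef1 and Satb1. Their part in the results was not tested.

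Foxp3+ CD24hi cells differed from precursors in 4 of 9 genes, where 16.0% of all genes passed. Gata3 was higher (0.62 ± 0.10, adjusted p = 0.000109), Runx3 was 3.76-fold lower (-1.91 ± 0.16, adjusted p = 7.12e-09) and Sox4 2.23-fold lower (-1.16 ± 0.23, adjusted p = 0.00063), each without overlap. The second Runx3 probe set gave -0.15 and did not pass. Bcl11b rose by 0.40 ± 0.13 (adjusted p = 0.0407) but overlapped, and it did not pass without precursor replicate 2 or 3 or Foxp3+ CD24hi replicate 1 or 2 (0.0673 to 0.312). Zbtb7b and Runx1 differed from precursors by -0.08 and 0.01 (95% intervals -0.34 to 0.17 and -0.24 to 0.27). The second Zbtb7b probe set fell, however (-0.62), and the mean of all Zbtb7b probe sets passed (-0.35, adjusted p = 0.00768, limma). Lef1, at -0.32 ± 0.12 (adjusted p = 0.0915), and Tox, at 0.43 ± 0.23 (0.238), passed with the replicate block (0.0406 and 0.0372), and without precursor replicate 3 Lef1 (0.0273) and Satb1 (-0.39, 0.0193) passed too. In this comparison 6 of 9 double-positive markers, 5 of 7 NK and innate-like markers and 4 of 4 gamma delta markers fell and 1 NK and innate-like marker rose.

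In lymph node Tregs 3 of 9 genes were lower than in Foxp3+ CD24lo thymocytes, where 5.93% of all genes passed: Sox4 by 3.22-fold (-1.69 ± 0.23, adjusted p = 1.67e-05), Satb1 by 1.83-fold (-0.87 ± 0.12, 2.58e-05) and Gata3 (-0.36 ± 0.10, 0.0352). The first 2 were separated by wide gaps, whereas Gata3 did not pass when any Foxp3+ CD24lo array or Treg replicate 1 or 3 was left out (0.0554 to 0.263). Runx3 was higher by 0.49 ± 0.16 (adjusted p = 0.0802), and passed with the replicate block (0.0432). Lef1, Bcl11b, Runx1, Tox and Zbtb7b had differences of -0.21 to 0.17. In the same comparison 2 of 5 B cell markers rose (5.22 to 5.75 in lymph node Tregs and 4.46 to 4.56 in Foxp3+ CD24lo cells), as did 3 of 7 antigen-presenting cell markers (6.75 to 7.38 and 5.90 to 6.39), with no overlap of the arrays' mean levels. Also, 1 of 7 NK and innate-like markers rose and 2 of 9 double-positive markers fell (5.22 to 5.52 and 5.65 to 5.73). Their part in the result was not tested.

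Naive lymph node cells were set against Foxp3- CD24int and Foxp3- CD24lo thymocytes, since markers of other cell types were high in CD24lo cells. Against CD24int, Sox4 was 4.03-fold lower (-2.01 ± 0.23, adjusted p = 8.87e-07), and Satb1 (-0.61 ± 0.12, 0.00119), Gata3 (-0.51 ± 0.10, 0.00165) and Tox (-0.80 ± 0.23, 0.0257) were lower, while Runx3 was higher (0.62 ± 0.16, 0.012). These 5 of 9 genes compare with 8.56% of all genes passing. Tox was lost without Foxp3- CD24int replicate 2 or 3 or naive replicate 1 (0.0761 to 0.136), and Runx3 without Foxp3- CD24int replicate 2 or naive replicate 2 or 3 (0.0513 to 0.0627). Against CD24lo, Lef1 (0.76 ± 0.12, 7.17e-05), Bcl11b (0.55 ± 0.13, 0.00423) and Runx1 (0.45 ± 0.12, 0.0133) were higher and Gata3 (-0.62 ± 0.10, 8.92e-05), Sox4 (-1.15 ± 0.23, 0.000577), Tox (-0.78 ± 0.23, 0.0179) and Runx3 (-0.52 ± 0.16, 0.0267) lower, where 14.6% of all genes passed. Runx3 thus ran in opposite directions against the 2 thymic groups on the probe set used. Its second probe set gave 0.18 against CD24int and -0.02 against CD24lo and passed in neither. With the mean of all probe sets Runx3 did not pass against CD24lo (-0.27, adjusted p = 0.0998, limma). Without naive replicate 1 the second comparison kept 4 calls, losing Tox (0.104), Runx1 (0.0573) and Runx3 (0.112). Tox was also lost without Foxp3- CD24lo replicate 2 or 3 (0.0664 and 0.0531), Runx1 without Foxp3- CD24lo replicate 1 or naive replicate 2 (0.0942 and 0.0658), and Runx3 without any of Foxp3- CD24lo replicates 1 and 2 and naive replicate 2 (0.0551 to 0.0875). Against CD24lo all 7 NK and innate-like markers and 4 of 4 gamma delta markers fell in naive cells, and against CD24int 2 of 7 NK and innate-like markers rose and 1 of 4 gamma delta markers fell. Of 5 B cell markers 2 rose against each (4.81 to 5.55 in naive cells, 4.24 to 4.40 at CD24int and 4.14 to 4.33 at CD24lo), and 7 of 7 cell cycle genes fell against both (7.85 to 8.41 in naive cells, 9.95 to 10.60 at CD24int and 9.31 to 9.93 at CD24lo). Their part was not tested.

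Partners in the lineage choice, a list of 14 genes of which 13 were measured, moved in both directions. At CD24hi 2 rose and 4 fell in Foxp3+ cells (18.0% of all genes passed, median -0.02, against 0.0045 over all genes): Myb, which supports Gata3 expression in CD4 commitment, rose by 2.13 ± 0.17 (adjusted p = 9.17e-10), Gfi1, a repressor active in thymocytes, by 1.52 ± 0.13 (3.50e-09), and the Tox relative Tox2 (-1.66 ± 0.22, 4.03e-06) and the corepressor Tle3 (-0.52 ± 0.09, 9.30e-05) fell. At CD24int 3 rose and 5 fell, with Myb again highest (2.22 ± 0.17), and at CD24lo 2 rose and 3 fell, led by the corepressor Tle4 (-2.08 ± 0.13, 5.70e-12), with median differences of -0.18 and -0.02, against -0.012 over all genes at each level, where 15.3% and 21.0% of all genes passed. In lymph node Tregs Gfi1 (1.53 ± 0.13), Myb (1.44 ± 0.17) and Tox2 (1.46 ± 0.22) rose and Tle4 fell (-0.67 ± 0.13), out of 13, where 12.4% of all genes passed (median -0.04, as over all genes at -0.042). Ets1, the best expressed of those that did not pass, differed by -0.18 to 0.05 in these 4 comparisons. In precursors 3 rose and 3 fell against Foxp3- CD24hi cells (9.11% of all genes passed), with Gfi1 at 1.85 ± 0.13 (3.56e-10) and Myb at 1.42 ± 0.17 (2.16e-06).

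Genes linked to the lineage factors were read as 2 lists. Of 12 CD4 and CD8 lineage genes, 3 rose and 4 fell in Foxp3+ cells at CD24hi (median -0.24, against 0.0045 over all genes, of which 18.0% passed), among them the granule gene Nkg7 (3.59 ± 0.37), the chemokine gene Ccl5 (2.74 ± 0.30) and the CD8 lineage factor gene Eomes (1.43 ± 0.18), which rose, and Crtam, a surface protein of cytotoxic CD4 cells, which fell (-1.27 ± 0.19). At CD24int 3 rose and 2 fell (median -0.23, against -0.012 over all genes, of which 15.3% passed), with the same 4 genes passing with the smallest p. At CD24lo 2 rose and 7 fell (median -0.69, against -0.012 over all genes, of which 21.0% passed), with Eomes higher (1.77 ± 0.18) and the granzyme genes Gzma (-3.34 ± 0.36) and Gzmb (-2.97 ± 0.33) lower, while in lymph node Tregs Gzmb rose (3.29 ± 0.33) and Crtam (-2.36 ± 0.19), Prf1 and Cd40lg fell (median of the list -0.01, against -0.042 over all genes, of which 12.4% passed). Of 6 measured type 2 helper genes, the transcription factor gene Maf rose at CD24hi (1.48 ± 0.43) and CD24int (1.53 ± 0.43). The chemokine receptor gene Ccr4 fell at CD24hi (-1.43 ± 0.15) and Il4 at CD24int (-1.44 ± 0.38). That was 1 up and 1 down at each level, with list medians of -0.19 and -0.086. At CD24lo 5 of 6 fell (median -1.43), with Il4 at -5.83 ± 0.38. The list averaged 7.10 in Foxp3- CD24lo cells and 4.62 to 5.57 in the other groups. Foxp3- CD24lo cells also carried the NK, innate-like and gamma delta markers, whose part in the falls at CD24lo in both lists was not tested. In lymph node Tregs Ccr4 (1.62 ± 0.15), Maf (2.90 ± 0.43) and Ccr8 (0.84 ± 0.26) rose and Il4 fell (-1.46 ± 0.38), with a list median of 0.31. The shares and medians of all genes are those just given. Gata3 itself passed upward in the last 3 of these 4 comparisons. Whether Gata3 acts on the listed genes here was not tested.

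Among themselves the 9 genes fell into patterns over the 9 group means, given as a description of means that share arrays. Zbtb7b and Runx1 ran together (r = 0.89), as did Satb1 and Sox4 (0.89), Runx1 and Lef1 (0.84), Zbtb7b and Lef1 (0.84) and Gata3 and Tox (0.78). Runx3 ran against Bcl11b (-0.79) and Gata3 (-0.77). Neighbours in the order of levels often overlapped: below Foxp3- CD24hi, each neighbouring pair of Zbtb7b means did, and Runx1 levels overlapped between neighbours from lymph node naive cells down. Sox4 was stepped more clearly, with gaps free of overlap below Foxp3- CD24hi (0.87), below Foxp3+ CD24hi (0.64) and above lymph node Tregs (1.09). Runx3 had such gaps below Foxp3- CD24lo (0.52), below naive cells (0.49), below Foxp3- CD24hi (0.28) and above Foxp3+ CD24hi (0.93).

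The genes with the most similar group means were sought among 1023 genes with a mean intensity of at least 64 and an SD of the 9 group means of at least 0.5. Satb1 was matched most closely by Kcnmb4 (r = 0.99), Dusp10 and Bcl9 (0.95 each), and Sox4 by Csnk1e, Spo11 (0.97 each) and Akap1 (0.95). For Gata3 they were Gadd45g (0.97), Golm2 (0.96) and Wdr78 (0.94), and for Tox Slc27a1 (0.87), Zfp821 (0.86) and Cd81 (0.85). Lef1 was matched by Arhgap29 (0.96), Tdrp and Rsu1 (0.93 each), and Runx3 by Sec24d (0.93), Prkar2a (0.92) and Bpnt1 (0.91). For Runx1 they were Car2 (0.92), Lzts1 (0.91) and Gsn (0.89), for Zbtb7b Lzts1 (0.87), Kif23 (0.85) and Gm15708 (0.84), and for Bcl11b Abcg2, Afap1 (0.93 each) and Zfp281 (0.89). With 9 points and 1023 candidates, high values of r are to be had for many patterns.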

How the data were processed

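RNA of 27 samples was hybridised to Affymetrix 3' arrays with a 3' labelling protocol, per the labels. The authors deposited intensities processed by RMA, per the submitters' processing notes, which give no version and do not say whether all arrays were processed together. Positive values from 3.55 to 24083, with array medians of 30.3 to 32.0, were read as a linear scale and put on the log2 scale, no constant being added. Of 45101 probe sets, 34958 had 1 symbol, 932 several and 9211 none, and only those with 1 symbol were used. Each gene was represented by its probe set with the highest mean, which gave 18194 genes with no filter on dim ones. Tcf7 was not analysed here for want of such a probe set.

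A linear model of 9 group means was fitted with limma 3.58.1 in R 4.3.3 (prior degrees of freedom 5.98), and p-values are two-sided and adjusted by Benjamini-Hochberg within each of 17 comparisons. The typical standard error was 0.15 between groups and 0.21 for an interaction. Same-numbered arrays deviated together (every correlation across genes above 0.1) in 11 of 17 comparisons, from the data alone. The script was tested on simulated data.

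The genes, lists and comparisons were chosen with earlier results of these data known. All 10 genes were named whatever their values, as were the 3 genes most like each, Foxp3, Il2ra and Cd24a. From each described list up to 4 genes with the smallest p were named. The best expressed gene of those that failed was named for the lineage-choice partners alone. Alb and the liver markers were listed because of that array. Alternatives were a replicate block, the compared groups alone, quantile normalization, leaving out dim genes (mean under 32), the mean of all probe sets of a gene, all probe sets, and each array left out.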

Additional observations from a re-analysis of the deposited data

Results flagged for a closer look

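Changes along maturation that differed between Foxp3+ and Foxp3- thymocytes by the interaction test are listed here as log2 values, the change in Foxp3+ cells minus that in Foxp3- cells. Between CD24hi and CD24int, Gata3 differed by 0.82. Between CD24hi and CD24lo, Lef1 differed by 1.11, Runx1 by 0.98, Zbtb7b by 0.93, Satb1 by 0.78, Bcl11b by 0.70 and Gata3 by 0.48. The CD24lo values rest on Foxp3- CD24lo cells, whose markers of NK, innate-like and gamma delta T cells are given in the report.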

How the results depend on the processing

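No call was reversed under any alternative. Differences in which neither value passed changed sign 67 times, in 24 pairs of gene and comparison and by at most 0.19 in size. With the replicate block 16 calls were added and none lost. Where the numbers did not pair the samples these were Zbtb7b at CD24int (adjusted p = 0.014), Sox4 at CD24lo (0.00288), Zbtb7b in naive against Foxp3- CD24lo cells (0.00684) and, for the interaction between CD24hi and CD24int, Zbtb7b (0.00878) and Runx3 (0.0349), which took that count to 3 genes, against 1. The block took the count from CD24hi to CD24int in Foxp3+ cells to 2, against 1, and the compared groups alone and the mean of all probe sets took it to 0. The mean of all probe sets took the interaction count to 2, against 1. With 1 array left out, the counts ranged from 0 to 1 for CD24int against CD24hi in Foxp3+ cells, from 1 to 3 for that step in Foxp3- cells (4 with all arrays), from 1 to 2 for the interaction at CD24int, from 3 to 5 for naive against Foxp3- CD24int cells and from 4 to 7 for naive against Foxp3- CD24lo cells. Fewer arrays were fitted in these cases. Other counts stayed within 1.5 times. Comparing groups alone ended 7 calls and added 3, quantile normalization ended 1 and added 4, leaving out dim genes added 5, the mean of all probe sets ended 3 and added 9, and all probe sets ended 3. No depth applies to arrays, and genes near the lowest intensities have compressed differences.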
